A study of Mus musculus with 6 samples.

Results

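The 33 genes described here encode proteins that license, unwind, prime, copy and repackage DNA in S phase, or supply the nucleotides for it. They were listed by symbol, with no measured value in the choice, and all 33 were found among the 27998 genes of the deposited tables. Their levels were read in single cells of the small-intestinal epithelium of C57BL/6J mice aged 8 weeks, captured in 10x 3' libraries. There were 3 wild-type libraries and 3 titled Itgb7 KO, with the genotype label Itgb7-/-, and each group was numbered 1 to 3. Itgb7 codes for integrin β7, the partner of αE in the receptor with which T cells in the epithelium hold on to E-cadherin. Per the series title, the study asked how T cells with this integrin act on the fate of intestinal stem cells. The labels state neither how the allele was made nor whether a library came from 1 animal. P-values therefore measure how far these libraries spread, part of which could be technical.

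In late mitosis and G1, Cdc6 and Cdt1 load the ring of Mcm2 to Mcm7 onto origins. At the start of S phase Cdc45 and the GINS complex turn that ring into the moving helicase, and DNA polymerases held by the sliding clamp Pcna then copy both strands. Many genes of this machinery are E2F targets and are transcribed from late G1, ahead of the mitotic genes. In the gut the stem cells at the crypt base and their transit-amplifying progeny divide, while enterocytes, goblet cells and most hormone-secreting enteroendocrine cells have left the cell cycle.

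E2F-type motifs were frequent in the promoters of these genes. RefSeq promoter windows of GRCm38.p6, 250 bases before to 50 after each annotated start, were found for 28 of the 33 genes; Gins1, Tipin, Rfc2, Gins2 and Mcm4 had no entry. The motifs TTTCCCGC, TTTGGCGC, TTTCGCGC and TTTGCCGC were searched on both strands, with overlapping matches allowed. A gene counted once if any of its windows held a match. At least 1 match lay in 11 of the 28 genes (39.3%), against 704 of the 27025 genes of the table (2.6%). It lay in 21 of 54 other replication genes (38.9%) and in 1 of 39 mitosis genes (2.56%). The genes with a match were Mcm3, Mcm5, Mcm6, Mcm7, Cdc6, Cdt1, Rfc3, Pola1, Lig1, Hells and Uhrf1. Shown here are the 5 stretches of 60 bases around a match that overlap no annotated exon. Each reads 5' to 3' on the strand of the gene, with the matches in capitals. They lie at chr1:128359782-128359841 (Mcm6, minus strand), chr17:56304102-56304161 (Uhrf1, plus), chr8:75109330-75109389 (Mcm5, plus), chr11:98907987-98908046 (Cdc6, plus) and chrX:93632260-93632319 (Pola1, minus).
Mcm6: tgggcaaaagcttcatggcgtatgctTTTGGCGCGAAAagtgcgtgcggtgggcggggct
Uhrf1: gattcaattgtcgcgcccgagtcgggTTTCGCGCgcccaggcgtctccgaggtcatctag
Mcm5: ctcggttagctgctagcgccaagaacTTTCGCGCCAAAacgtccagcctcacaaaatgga
Cdc6: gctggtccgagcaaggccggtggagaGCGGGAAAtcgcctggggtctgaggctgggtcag
Pola1: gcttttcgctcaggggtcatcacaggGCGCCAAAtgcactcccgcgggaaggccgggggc
The first match began 110 bases before the RefSeq start in Mcm6, 185 in Uhrf1, 153 in Mcm5 and 138 in Cdc6 and Pola1. In Mcm6 and Mcm5 the capitals join 2 overlapping matches, 1 on each strand. GENCODE M21, from which the gene positions given further on are taken, starts Cdc6 and Uhrf1 farther upstream, so these stretches lie within its bounds of both genes, in none of its exons. A match describes these letters and does not show binding.

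Of 26153 barcodes, 25076 cells were kept, and clustering without these 33 genes and the other replication genes gave 31 clusters. A level is given as CPM, the UMIs (captured RNA molecules) of a gene per 1000000 UMIs of a cell class in 1 library; 3' libraries tag each molecule once, so it was not divided by gene length. Names of classes rest on marker genes. The stem-like class (4104 cells) held Lgr5 at 63.4 ± 14.6 CPM (SD, n = 6), against 3.09 ± 0.957 in the dividing, transit-amplifying-like class (4900 cells). Of the latter, 4 clusters were led by mitotic genes, and cluster 19 (578 cells) had 1 marker of the class among its first 10 genes and 13 among its first 50. Cluster 14 (899 cells), 1 of those 4, had 4 among its first 50, with the lower-villus enterocyte marker Rbp7 as its second gene. Secretory progenitor-like cells (706) were led by Atoh1, and enteroendocrine-like cells (804) by Neurog3 or hormone genes. A cluster of 1674 cells stayed unnamed: 8 of its first 10 genes by fold were among these 33 genes (Rrm2, Hells, Uhrf1, Ung, Lig1, Mcm3, Mcm6 and Pcna), and no marker was among them. It is called replication-led here and was made a class of its own after its genes were seen. Clusters 11, 16, 18 and 20 (1006, 790, 619 and 566 cells) stayed unnamed as well, with mitochondrial genes leading cluster 18. They are in no class but count in the values over all kept cells. Libraries held 28475253 to 76133693 UMIs, with medians of 6079.5 to 22384 per barcode. Replicates 1 of both groups stand apart from the other 4 libraries: their smallest barcodes held 13621 (wild-type) and 7754 UMIs, against 1417 to 2946. They carry the neighbouring serial numbers 18X057 and 18X058. Wild-type libraries held 2 to 8 Itgb7 UMIs and those titled Itgb7 KO 12 to 33. A 3' tag can lie outside a deletion, so this checks nothing. Since it does not follow the titles, the second group is named "labelled Itgb7 KO" throughout. Over all kept cells the 18 T cell markers summed to 1.83 to 5.02 CPM and the 6 B and plasma cell markers to 1.43 to 2.28 CPM. The 10 stromal and endothelial markers summed to 2.01 to 6.41 CPM, with 6 of them at 0. The 11 myeloid markers summed to 51.8 to 256 CPM in the wild-type group and 554 to 581 CPM in those labelled Itgb7 KO, with C1qc at 0, and their part in the results was not tested. Lyz2, among these 11, was also a Paneth marker here, and the sum was not split by gene. It therefore does not show that myeloid cells differed between the groups.

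The 33 genes were highest in replication-led, stem-like and secretory progenitor-like cells, and low in goblet-like and enterocyte-like cells. Their summed level was highest in replication-led cells, at 3131, 4197 and 3466 CPM in the wild-type group and 3442, 4097 and 4126 CPM in those labelled Itgb7 KO. Stem-like cells followed with 2401, 3027 and 2557 CPM and 2433, 3057 and 2992 CPM in the same order. Secretory progenitor-like cells reached 1640, 3039 and 2479 CPM and 1743, 2537 and 3764 CPM. These cells, which precede goblet and Paneth cells, thus held 4.21 to 7.26 times the summed level of goblet-like cells of the same library, and all 33 genes were higher in them than in goblet-like cells in all 6 libraries. Dividing cells stood at 1326, 1906 and 1514 CPM and 1324, 1545 and 2086 CPM. Enteroendocrine-like cells lay lower on average, at 1107 ± 264 CPM (SD, n = 6), and goblet-like and mature enterocyte-like cells lowest of the classes named so far, at 461 ± 62.5 and 439 ± 45.3 CPM. Lower-villus enterocyte-like cells held 369.8 ± 40.9 CPM. Tuft-like cells, a differentiated class of 10 to 33 cells a library, were far above these, at 1324, 598.5 and 926 CPM in the wild-type group and 1525, 1741 and 611 CPM in those labelled Itgb7 KO. In replicates 1 and 2 of the latter they lay above the dividing cells of the same library. Paneth-like cells held 434 ± 178 CPM (SD, n = 6). Of the 33 genes, 31 had their highest mean level in replication-led cells and 2, Fen1 and Mcm10, in secretory progenitor-like cells. Lower-villus enterocyte-like cells had the lowest mean of 25 genes, Paneth-like cells of 7 and goblet-like cells of 1. Classes are groups of the same cells and the replication-led class was picked for these genes, so these orders are a description with no test.

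**Figure D1:**
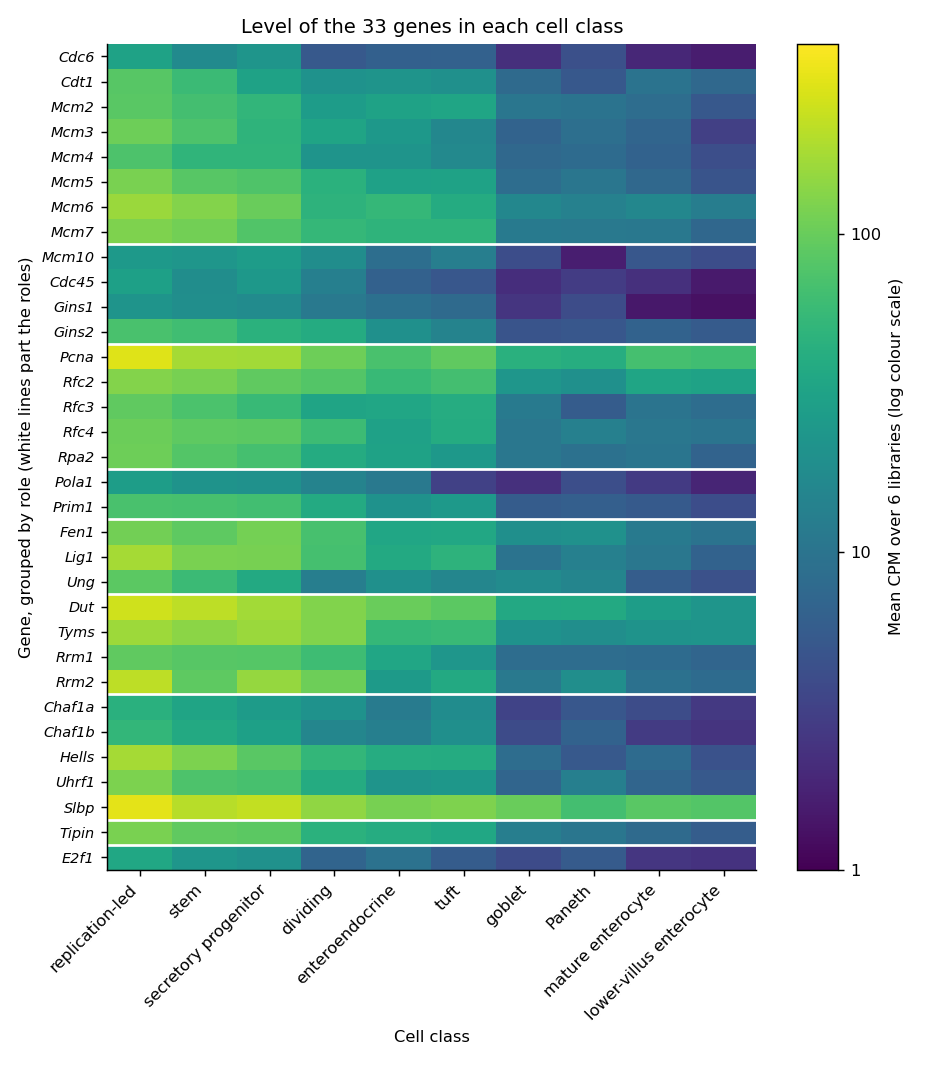
Mean CPM over 6 libraries of each of the 33 genes (rows, grouped by role) in 10 cell classes (columns), on a log colour scale. The replication-led, stem-like and secretory progenitor-like columns are bright for nearly every gene, while Slbp, Pcna, Rfc2, Dut and Tyms keep visible levels in the differentiated classes on the right.

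**Figure D2:**
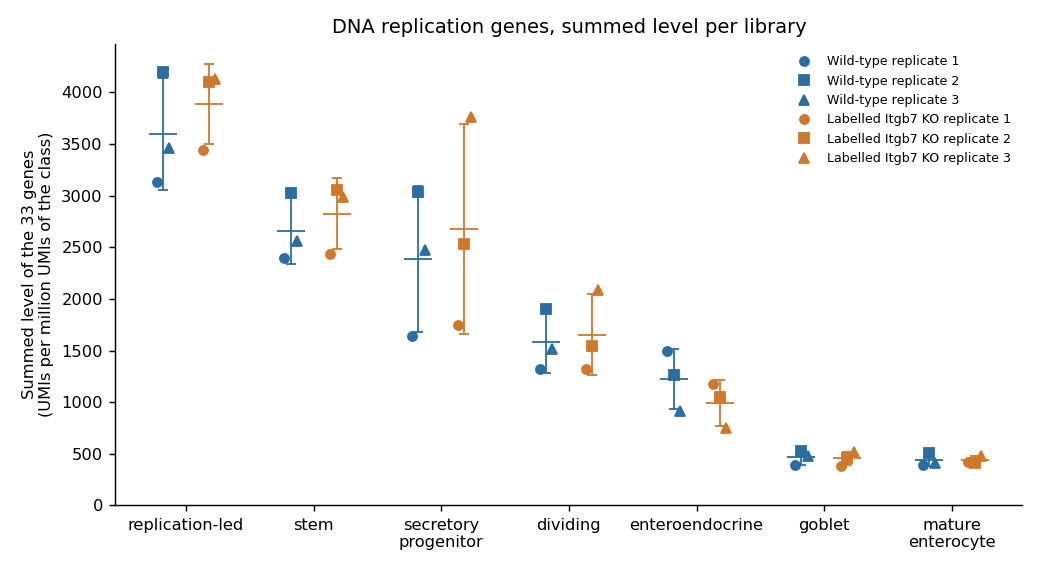
Summed CPM of the 33 genes per library (points, shape by replicate number) in 7 cell classes, with the mean (line) and SD (bar) of each group of 3. Wild-type and labelled Itgb7 KO libraries overlap in every class shown, and replicate 1 of both groups is lowest in stem-like, dividing, secretory progenitor-like and replication-led cells but highest of its group in enteroendocrine-like cells.

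The replication genes and the mitosis genes differed in opposite directions between replication-led and dividing cells. All 33 genes were higher in replication-led than in dividing cells in all 6 libraries, and their summed level was 1.98 to 2.65 times as high. All 45 mitosis genes had a ratio under 1, with a median of 0.370, though many of them are markers by which the dividing class was named. The replication-led class was in turn picked for the replication genes. These directions, and the ratios that follow, are therefore a description with no test. Across the 33 genes the median ratio over libraries ran from 1.3 for Mcm10 to 7.1 for Ung, with a median of 2.53. Besides Ung (5.0 to 8.99 over the 6 libraries), the highest ratios belonged to Cdc6 (4.5 to 7.24), E2f1 (3.67 to 6.29) and Cdt1 (3.2 to 5.22). Genes of helicase loading had a median ratio of 3.27 and those of chromatin behind the fork of 3.24, against 1.94 for helicase activation and 1.77 for nucleotide supply. The 11 genes with an E2F-type match had a median ratio of 3.24 (2.19 to 6.46) and the 17 without one 2.08 (1.30 to 7.10), so the ranges overlapped.

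Stem-like cells also exceeded dividing cells, with 32 of 33 genes higher in all 6 libraries. The exception was Rrm2, which was higher in stem-like cells in 1 library and had a median ratio of 0.832. This order depends on how the classes were drawn. The dividing class was named by mitosis markers, and replication-led cells, with Lgr5 at 3.73 ± 2.15 CPM (SD, n = 6), were set apart from it. Stem-like cells rich in replication genes, as in cluster 22, stayed in their class. The order thus does not compare stem cells with all of their dividing progeny. Clusters within a class were far apart. In the stem-like class the summed level averaged 4400 CPM in cluster 22, whose first 10 genes included Lig1, Hells and Rrm2, and 1536 CPM in cluster 21. In the dividing class it averaged 2450 CPM in cluster 19, whose first 10 genes included Rrm2, and 608 CPM in cluster 14. That cluster was led by the cell cycle phosphatase gene Cdkn3, with the lower-villus enterocyte marker Rbp7 next. It held 590.1, 629 and 577 CPM in the wild-type group and 615, 616 and 623 CPM in those labelled Itgb7 KO, against 461 ± 62.5 CPM (SD, n = 6) in goblet-like cells.

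**Figure D3:**
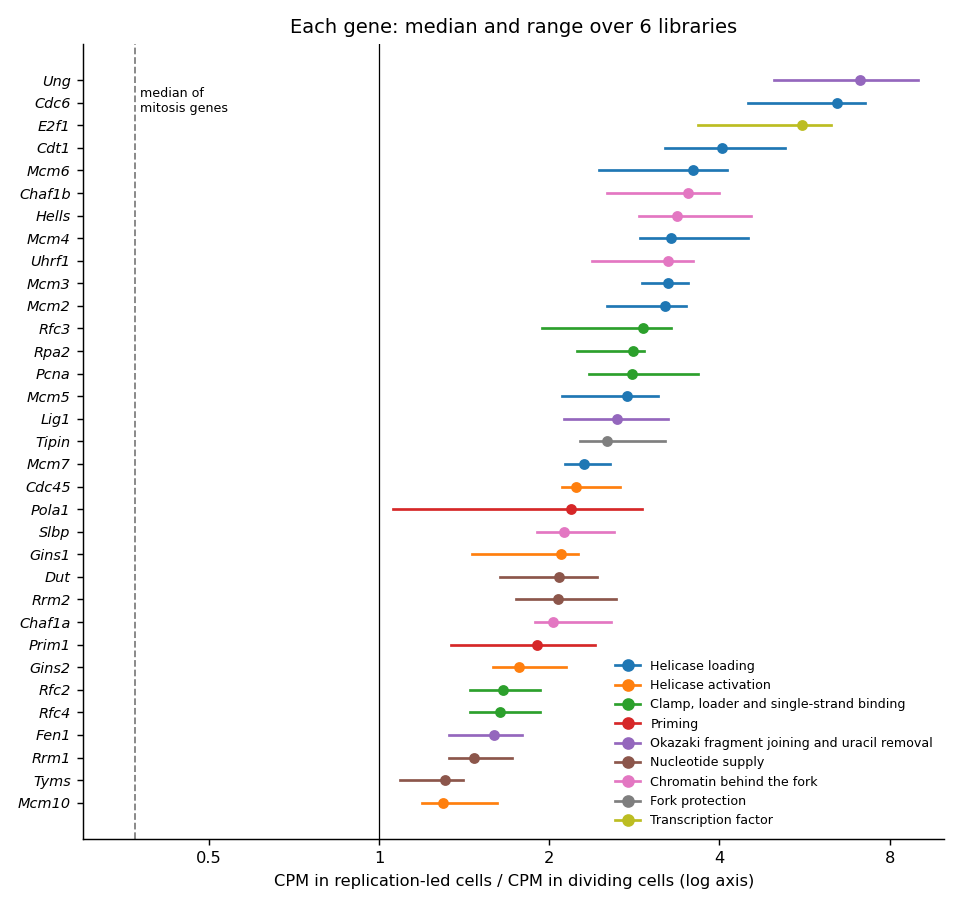
Ratio of CPM in replication-led to CPM in dividing cells for each of the 33 genes on a log axis: the point is the median and the line the range over 6 libraries, coloured by role. Every line lies to the right of 1, from Mcm10 and Tyms at the bottom to Cdc6 and Ung at the top, while the dashed line marks the median of the 45 mitosis genes at 0.370.

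No replication gene differed between wild-type libraries and those labelled Itgb7 KO by the test in the 5 classes tested (stem-like, dividing, replication-led, secretory progenitor-like and enteroendocrine-like) or in all epithelial cells summed. In stem-like cells 0 of 33 genes were called in edgeR at an adjusted p of 0.05, where 0.00899% of the 11123 genes tested were (1 gene, Agpat4, named after its value was seen and not of this list). In dividing, replication-led, secretory progenitor-like and enteroendocrine-like cells 0 genes of the list were called among 33, 33, 33 and 30 tested, against 0% of 11235, 9741, 8642 and 8520 genes. An unadjusted edgeR p under 0.05 was reached by 0 genes of the list in each of these 5 classes, and by 328, 324, 279, 87 and 185 of all genes. DESeq2 called 0 of the list too, against 0.063%, 0.0713%, 0.0308%, 0.0463% and 0.0352% of all genes. No tested gene of the list had groups that lay apart. Of all genes tested, libraries labelled Itgb7 KO lay below every wild-type one in 4.35%, 4.4%, 4.11%, 2.59% and 2.86%, and above in 2.98%, 3.35%, 3.38%, 2.79% and 3.22%. With all epithelial cells summed, 0 of 33 genes were called, against 0.00738% of 13556 genes in edgeR and 0.192% in DESeq2. Their median log2 fold change there was −0.05, with 23 below 0 against 51.2% of all genes, and 0 lay apart, against 2.89% of all genes lower and 2.6% higher. With the replicate number as a block, 0 of the list were called again, against 0.00899%, 0.0267%, 0.0103%, 0.0231% and 0.258% of all genes in the 5 classes and 0.00738% in all epithelial cells.

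The 5 differentiated classes outside this comparison were not fitted, and their values, compared after the data were seen, are a description over genes with at least 10 UMIs. In lower-villus enterocyte-like cells the libraries labelled Itgb7 KO lay below every wild-type one for 7 of the 33 genes (Mcm3, Mcm5, Mcm6, Gins2, Cdc6, Ung and Tyms), against 6.13% of 12456 genes. None of the 33 lay above, against 2.91%. In mature enterocyte-like cells 4 of 33 lay below (Mcm5, Mcm6, Gins2 and Prim1), against 6.24%, and 0 above, against 3.35%. Mcm6, for one, made 13.3, 13.1 and 14.9 CPM in wild-type and 12.9, 12.6 and 8.22 CPM in labelled Itgb7 KO lower-villus enterocyte-like cells, levels far under those of the cycling classes. In goblet-like cells 4 of 33 lay below (Cdc6, Rfc4, Ung and Rrm1), against 5.62%, and 0 above, against 2.43%. In Paneth-like cells 2 of 33 lay below (Cdt1 and Rfc3), against 2.98%, and 0 above, against 0.648%. In tuft-like cells 29 genes had 10 UMIs, of which 0 lay below, against 4.82%, and 2, Rpa2 and Slbp, above, against 4.11%.

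The sizes of the changes were small in the 4 cycling classes. The median log2 fold change of the 33 genes, labelled Itgb7 KO over wild-type, was 0.00 in stem-like, −0.01 in dividing, 0.04 in replication-led and 0.09 in secretory progenitor-like cells, where the medians of all genes were 0.002, −0.001, 0.002 and −0.002. Below 0 lay 15, 19, 12 and 14 of the 33 genes, against 49.6%, 50.1%, 49.7% and 50.3% of all genes. The medians of the standard errors (SE) were 0.14, 0.21, 0.15 and 0.26, and none of the 33 genes in these classes lay more than 2 SE from 0. In enteroendocrine-like cells 29 of 30 tested genes lay below 0, against 50.8% of all genes, with a median of −0.41 against −0.007.

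**Figure D4:**
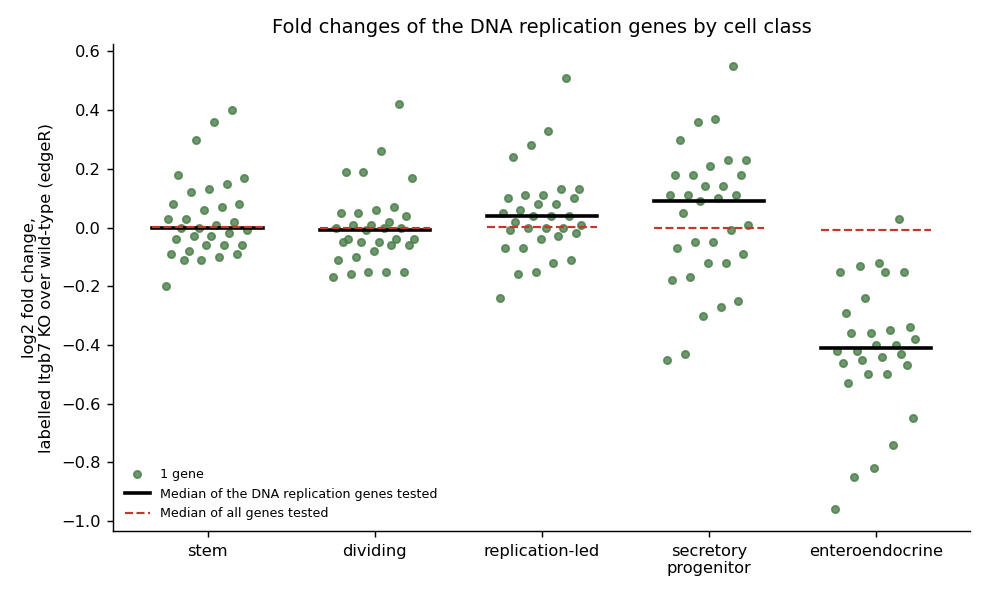
The edgeR log2 fold change of each gene tested (points; labelled Itgb7 KO over wild-type) in 5 cell classes, with the median of the DNA replication genes (black) and of all genes tested (red, dashed). Points scatter around 0 in the 4 cycling classes, with Slbp highest in each, and lie below 0 in enteroendocrine-like cells but for Slbp at 0.03.

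Helicase loading involves 8 of the genes, which summed to 788 ± 77.2 CPM in replication-led, 593 ± 65 in stem-like, 459 ± 126 in secretory progenitor-like and 257 ± 39.7 in dividing cells (SD, n = 6 each). Mcm6 and Mcm7, subunits of the helicase ring, were the most abundant of them in dividing cells. Mcm6 made 157, 180.1 and 148 CPM in replication-led cells of the wild-type libraries and 155, 172 and 154 CPM in those labelled Itgb7 KO, and 37.9, 61.5 and 46.2 against 39.1, 42.1 and 62.6 CPM in dividing cells. The groups overlapped in both. Mcm7 had the smallest spread of the list relative to its mean in dividing cells, at 52.1, 59.1 and 53.4 CPM in wild-type dividing cells and 50.6, 52.1 and 56.8 CPM in those labelled Itgb7 KO. Its log2 fold change there was −0.06 ± 0.11 (SE; edgeR, adjusted p = 0.965). The other ring subunits Mcm2, Mcm3, Mcm4 and Mcm5 lay between 75.3 and 119.5 CPM on average in replication-led cells. The loaders had steeper profiles. Cdc6 (gene at chr11:98907801-98923940, plus strand) averaged 31.7 ± 5.36 CPM in replication-led and 5.31 ± 1.38 CPM in dividing cells, and Cdt1 84 ± 8.09 and 21.3 ± 4.15 CPM (SD, n = 6 each). In secretory progenitor-like cells Cdc6 made 9.48, 34 and 30.2 CPM in the wild-type group and 12.5, 25.1 and 24 CPM in those labelled Itgb7 KO. Replicate 1 of each group was lowest there, and the log2 fold change was −0.30 ± 0.46 (SE; edgeR, adjusted p = 1).

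Helicase activation was covered by Cdc45, Gins1 and Gins2, parts of the active helicase, and Mcm10, which helps to activate it. Gins2 was the most abundant, with 68.9, 81.2 and 64.1 CPM in wild-type and 74.3, 68.6 and 74.8 CPM in labelled Itgb7 KO replication-led cells, where the second range lay within the first. Mcm10 had the lowest ratio of replication-led to dividing cells of the list, with 25.4 ± 2.51 CPM in replication-led, 23.4 ± 3.83 in stem-like, 27.3 ± 7.35 in secretory progenitor-like and 19 ± 3.71 in dividing cells (SD, n = 6 each). In stem-like cells it had the lowest log2 fold change of the 33 genes, −0.20 ± 0.20 (SE; edgeR, adjusted p = 0.96), where wild-type libraries held 25, 25.4 and 24.7 CPM and those labelled Itgb7 KO 27.4, 21.6 and 16.6 CPM. The wild-type values lay within a narrow band, and the spread of the other group reached above and below it. In secretory progenitor-like cells Mcm10 made 24.4, 35.4 and 35.2 CPM against 22.1, 29.3 and 17.1 CPM, again with overlap (−0.43 ± 0.24, SE; edgeR, adjusted p = 1). Gins1 had a log2 fold change above 0 in that class, with 12.9, 19.6 and 12.8 CPM in wild-type and 17.3, 18.8 and 25.7 CPM in labelled Itgb7 KO libraries, which overlapped (0.37 ± 0.26, SE; edgeR, adjusted p = 1). Cdc45 held 19, 24.2 and 15.1 CPM and 20.3, 20.1 and 14 CPM in stem-like cells, with overlap.

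Pcna, the sliding clamp (gene at chr2:132249162-132253314, minus strand), was the most abundant gene of the clamp, clamp loader and single-strand binding group. It made 236, 354 and 267 CPM in replication-led cells of wild-type libraries and 260.3, 298 and 367 CPM in those labelled Itgb7 KO. In dividing cells it made 75.7, 143 and 108 against 71, 90.5 and 156 CPM. In both classes replicate 1 of each group was lowest, replicate 3 labelled Itgb7 KO was highest, and the groups overlapped. Pcna kept 68.8 ± 12.4 CPM in mature enterocyte-like cells (SD, n = 6), where of the list Slbp alone was higher. A copy named Pcna-ps2 held 654 UMIs over all kept cells, 1.87% of the 34899 of Pcna. Rfc2, a subunit of the clamp loader, spread less, with 69.9, 92.2 and 76.1 CPM in wild-type and 66.1, 83.1 and 91.8 CPM in labelled Itgb7 KO dividing cells. Rpa2, which coats single-stranded DNA, had one of the higher log2 fold changes in secretory progenitor-like cells, 0.36 ± 0.26 (SE; edgeR, adjusted p = 1). It made 42.1, 70.1 and 62.6 CPM there in the wild-type group and 59.7, 64.2 and 112 CPM in those labelled Itgb7 KO, of which replicate 3 alone lay above every wild-type library.

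The priming genes Pola1 and Prim1, subunits of the polymerase that starts each new strand, summed to 99.9 ± 9.84 CPM in replication-led cells (SD, n = 6). Prim1 made 33.9, 42 and 31.3 CPM in wild-type and 32.1, 40.2 and 51.9 CPM in labelled Itgb7 KO dividing cells. Pola1, its DNA polymerase subunit, made 8.56, 16.9 and 16.5 against 8.64, 12.7 and 23.8 CPM. For both the highest library was replicate 3 labelled Itgb7 KO and the groups overlapped. Among the genes that finish the lagging strand, Lig1, the ligase that seals it, and Fen1, the nuclease that trims its flaps, were close in dividing cells. Lig1 made 52.9, 80.3 and 72.1 CPM there in the wild-type group and 51.2, 64.1 and 90.7 CPM in those labelled Itgb7 KO, and Fen1 50.6, 82.2 and 62.6 against 59, 80.2 and 83.6 CPM. In each the groups overlapped. In replication-led cells Lig1 averaged 177 ± 17.1 CPM and Fen1 111 ± 21.7 CPM (SD, n = 6 each). Ung, the glycosylase that removes uracil from DNA, had 87.9 ± 7.57 CPM in replication-led and 13.1 ± 3.13 CPM in dividing cells, the steepest difference of the list.

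Nucleotide supply was served by Dut, which clears dUTP, Tyms, which makes thymidylate, and the ribonucleotide reductase subunits Rrm1 and Rrm2. Dut was the most abundant of the 33 genes in stem-like cells, with 211, 242 and 216 CPM in wild-type and 219, 205 and 224 CPM in labelled Itgb7 KO libraries. Tyms made 129.8, 133 and 108 CPM in wild-type and 127, 133 and 133 CPM in labelled Itgb7 KO dividing cells, and had the second lowest ratio of replication-led to dividing cells of the list, 1.31. Rrm1 made 67.5, 69.3 and 56.9 CPM and 64, 56.2 and 55.9 CPM in dividing cells, again with overlap and a low ratio of 1.47. Its partner Rrm2 (gene at chr12:24708241-24714146, plus strand) spread more widely over the libraries. It made 57.5, 101.1 and 72.8 CPM in wild-type stem-like cells and 54.4, 121 and 129 CPM in those labelled Itgb7 KO, a log2 difference of 0.36 ± 0.30 (SE; edgeR, adjusted p = 0.96). In replication-led cells it made 134, 261 and 185 against 147, 295 and 300.5 CPM. In each group replicate 1 was lowest, and the groups overlapped.

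The genes of chromatin behind the fork included Slbp, which had the widest spread over libraries of the list, relative to its mean, in dividing and replication-led cells. Slbp, which binds histone mRNA and supports its processing and translation (gene at chr5:33634952-33652574, minus strand), was the most abundant gene of the list in dividing, replication-led, secretory progenitor-like and enteroendocrine-like cells. It made 176, 349 and 246 CPM in replication-led cells of wild-type libraries and 205, 409 and 501 CPM in those labelled Itgb7 KO, and 95.7, 286 and 166 against 104, 250.5 and 478 CPM in secretory progenitor-like cells. Replicate 1 of both groups was lowest and replicate 3 labelled Itgb7 KO highest in each, with overlap between the groups. Its log2 fold changes were the highest of the list in every class tested: 0.40 ± 0.32 in stem-like, 0.42 ± 0.39 in dividing, 0.51 ± 0.31 in replication-led and 0.55 ± 0.49 in secretory progenitor-like cells (SE; edgeR, adjusted p from 0.944 to 1). Hells is a chromatin remodeller of the SNF2 family, and for it too replicates 1 were the lowest libraries and replicate 3 labelled Itgb7 KO the highest in stem-like cells. In stem-like cells it made 82.8, 119 and 124 against 85.9, 152 and 172 CPM (log2 fold change 0.30 ± 0.24, SE; edgeR, adjusted p = 0.96). Chaf1a and Chaf1b are subunits of the histone chaperone CAF-1. Chaf1a made 41.8, 45.5 and 46.5 CPM in wild-type and 44.3, 46 and 42.9 CPM in labelled Itgb7 KO replication-led cells, and Chaf1b 32.6, 44.4 and 41 against 35.9, 41.4 and 32.8 CPM in stem-like cells, with overlap in both. Uhrf1, which guides maintenance of DNA methylation, made 122 ± 20.2 CPM in replication-led cells (SD, n = 6).

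Tipin, a subunit of the fork protection complex, made 38.2, 61.5 and 41.5 CPM in wild-type and 36.3, 39.7 and 59.7 CPM in labelled Itgb7 KO dividing cells, with overlap. E2f1, the transcription factor of the list, made 32.6, 39.7 and 32.6 against 37.1, 33.2 and 36.4 CPM in replication-led cells, the second range within the first. In dividing cells it made 5.19, 7.45 and 8.89 against 5.99, 5.68 and 8.16 CPM. Its log2 fold change in secretory progenitor-like cells was −0.45 ± 0.31 (SE; edgeR, adjusted p = 1), the lowest of the list there, from 14.4, 32.7 and 24.6 CPM in the wild-type group and 16.3, 15.3 and 20.6 CPM in those labelled Itgb7 KO.

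Many of these values shared an order of libraries that crossed the genotype labels. Both replicates 1 lay below the other 4 libraries for 14 of the 33 genes in stem-like, 19 in dividing, 15 in replication-led and 27 in secretory progenitor-like cells. In enteroendocrine-like cells this held for 1 gene, and both replicates 1 lay above the other 4 for 12. These counts were not made over all genes, so they do not show that the order is particular to this list. Within the 2 replicates 1 alone the median log2 fold change of the list, 1 library a group and no test, was 0.05 in stem-like, −0.03 in dividing, 0.13 in replication-led and 0.10 in secretory progenitor-like cells. Within the other 4 libraries it was −0.01, 0.00, −0.04 and 0.06. Sequencing depth moves with this order too: median UMIs per kept cell were 22271 and 19391 in replicates 1, and 6077.5 to 12026 in the others. With every cell thinned to 3000 UMIs before summing, the medians were −0.04, 0.01, 0.02 and 0.08.

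In enteroendocrine-like cells 29 of the 30 tested genes had a log2 fold change below 0, and none passed the test. The summed level was 1491, 1266 and 911 CPM in the wild-type group and 1179, 1050 and 747 CPM in those labelled Itgb7 KO, so the groups overlapped, and wild-type replicate 1 was highest and replicate 3 labelled Itgb7 KO lowest. Cdt1 had the lowest log2 fold change, −0.96 ± 0.45 (SE, edgeR unadjusted p = 0.059, adjusted p = 1), from 38.5, 26.4 and 24.2 CPM in the wild-type group and 24.3, 12.1 and 7.53 CPM in those labelled Itgb7 KO, an overlap of 1 library. It was also the 1 gene of the list with an unadjusted DESeq2 p under 0.05. Chaf1b followed with 17.9, 22.2 and 10.5 against 12.1, 7.25 and 9.04 CPM (−0.85 ± 0.40, SE). Chaf1a made 25.9, 11.9 and 9.48 CPM in the wild-type group and 13.8, 11.3 and 0 CPM in the others (−0.82 ± 0.70, SE). Few molecules stand behind these values, 176 UMIs of Cdt1 and 100 of Chaf1b over the 6 libraries. At the other end of the list stood Slbp (0.03 ± 0.24, SE), with 92.9, 148 and 101.1 CPM and 84.4, 134 and 146 CPM. Next came Rrm1 (−0.12 ± 0.38, SE), with 49.8, 23.9 and 32.6 against 37.5, 42.7 and 21.1 CPM, and Rpa2 (−0.13 ± 0.39, SE). Cdc6, Cdc45 and E2f1 were too low to be tested. Of these, Cdc45 was lower in every library labelled Itgb7 KO (6.07, 5.64 and 1.51 CPM) than in any wild-type one (9.29, 8.53 and 7.37 CPM), on 50 UMIs in all.

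The size of this difference depended on single libraries and on how the class was drawn, while the median stayed below 0 in every alternative run. Without wild-type replicate 1, which held 51 enteroendocrine-like cells, the median log2 fold change was −0.11 and 19 of 30 genes lay below 0. Without labelled Itgb7 KO replicate 1 it was −0.78, and without replicate 3 of that group −0.24. Within the 2 libraries numbered 1 it was −0.47 and within the other 4 −0.45. With cells picked by single genes (at least 2 UMIs over Chga, Chgb and Neurog3) in place of clusters it was −0.05, with 19 of 33 genes below 0, and with cells thinned to 3000 UMIs it was −0.16 over the 14 genes still tested. Such thinned cells held on average 3.75 ± 1.56 UMIs of the 33 genes in wild-type and 2.76 ± 0.462 in labelled Itgb7 KO libraries (SD, n = 3 each). Thinned to 5000 UMIs, with more cells left out, they held 5.69 ± 1.66 and 5.71 ± 0.768, so no difference was seen there.

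The make-up of the class moved with the label as well. Enteroendocrine-like cells were 2.39% ± 0.463 of kept cells in the wild-type group and 3.9% ± 0.348 in the group labelled Itgb7 KO (SD, n = 3 each). Cluster 26, led by the progenitor gene Neurog3, made up 35.3%, 37.0% and 32.5% of these cells in wild-type libraries, and 30.6%, 24.9% and 18.6% of them with the label Itgb7 KO. It also had the highest level of replication genes of the 4 clusters, with summed CPM of 1752, 1824 and 1293 against 1629, 1660 and 1183. In clusters 27, 28 and 29, led by the hormone genes Gcg, Ghrl and the granin gene Chgb, the mean over 6 libraries was 968, 709 and 729 CPM. Groups overlapped in all 4 clusters. With the 4 clusters at equal weight the mean summed level was 1054 ± 347 CPM in wild-type and 927 ± 188 CPM in labelled Itgb7 KO libraries (SD, n = 3 each), a ratio of 0.880, against 0.811 for the class as a whole. The part of cluster make-up in the fold changes was not otherwise tested. In the same cells the 11 myeloid markers, which include the Paneth marker Lyz2, summed to 28.2 to 340 CPM in the wild-type group and 306 to 512 CPM in those labelled Itgb7 KO. The sum was not split by gene, and the part of these markers was not tested either. In a bulk sum over a class, fewer cells in S phase and fewer transcripts per cell cannot be told apart.

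**Figure D5:**
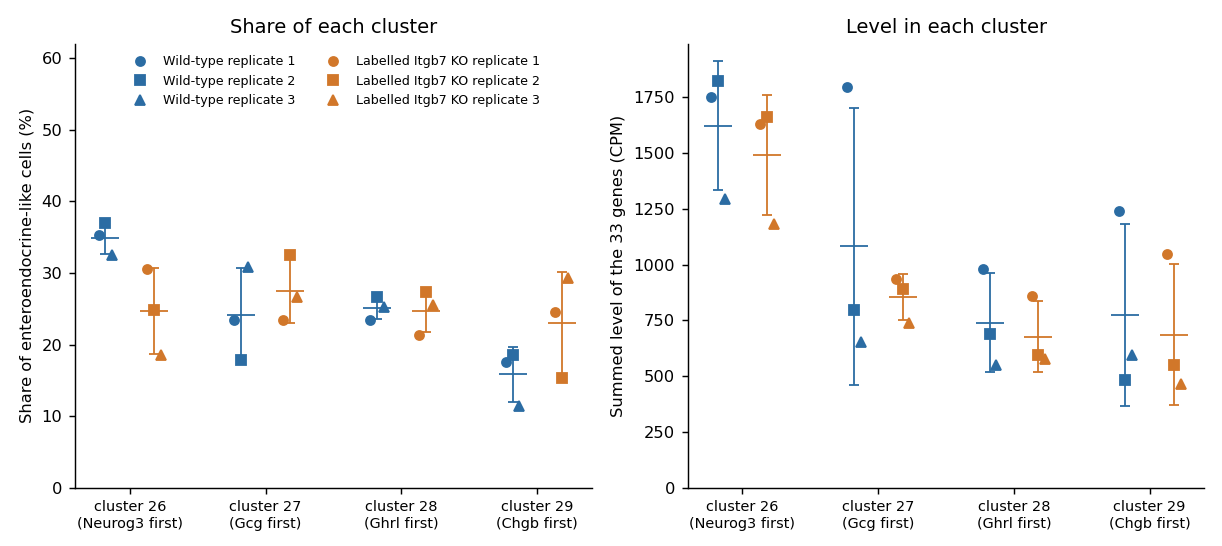
Left, share of enteroendocrine-like cells (percent) in each of 4 clusters per library; right, summed CPM of the 33 genes in the same clusters; points are libraries, lines means and bars SD of 3. Cluster 26 takes a smaller share in all 3 libraries labelled Itgb7 KO, while the levels within each cluster overlap, with wild-type replicate 1 (9 to 18 cells a cluster) highest in clusters 27, 28 and 29.

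Per cell, replication genes were again highest in replication-led cells at 1 fixed depth. Each cell was thinned to 3000 UMIs, which left out 0 to 329 cells a library over all classes, a loss not split by class. Replication-led cells then held on average 11.3 UMIs of the 33 genes, secretory progenitor-like cells 8.2, stem-like 8.13, dividing 4.68 and enteroendocrine-like 3.26, against 1.29 in mature enterocyte-like and 1.36 in goblet-like cells. Cells within a class differed widely. The 10th and 90th percentiles, averaged over libraries, were 5.02 and 17.5 UMIs in replication-led, 2 and 15.7 in stem-like and 0.167 and 7.83 in enteroendocrine-like cells. Free RNA reaches droplets of any cell type, so shares of cells with a UMI are read against mature enterocyte-like cells. Pcna was found in 58.7% ± 5.81 of wild-type and 56.5% ± 7.56 of labelled Itgb7 KO replication-led cells (SD, n = 3 each). An exact permutation test, 2-sided, gave p = 0.9, where 3 against 3 libraries cannot go below 0.1. In mature enterocyte-like cells the share was 19.3% ± 5.19 and 18.3% ± 1.45. The shares in enteroendocrine-like cells, 18.9% ± 7.64 and 15.1% ± 0.744, did not exceed that level, but lay above the 12.2% ± 2.89 and 12.9% ± 4.21 of goblet-like cells. Thinned to 5000 UMIs, which leaves out more cells, the shares were 27% ± 9.33 and 32.3% ± 13.3 in enteroendocrine-like and 29.1% ± 5.55 and 26% ± 3.46 in mature enterocyte-like cells. The 32.3% depends on replicate 3 labelled Itgb7 KO, at 47.6% against 23.5% and 25.7% in replicates 1 and 2. At 3000 UMIs Mcm6 was found in 15.6% ± 5.44 and 12.1% ± 4.34 of enteroendocrine-like cells, against 4.13% ± 1.24 and 4% ± 0.657 of mature enterocyte-like cells (SD, n = 3 each). Median depths before thinning were 3230 to 26315 UMIs a cell in enteroendocrine-like and 6270 to 21066 in mature enterocyte-like cells. The shallowest library of the enteroendocrine-like class thus lay close to 3000, and at 5000 most of its cells of this class were left out. Clusters 27, 28 and 29 had median depths of 0.535, 0.577 and 0.451 times the median of their library, against 0.869 in cluster 26. Thinning can thus shift this class towards cluster 26, which was not counted. Over 20 comparisons of shares at 3000 UMIs, of Pcna, Mcm6, Rrm2 and Slbp in 5 classes, exact 2-sided permutation tests gave adjusted p values of at least 0.941. Without thinning, Pcna was found in 80.8% ± 6.64 of wild-type and 69.7% ± 10.5 of labelled Itgb7 KO stem-like cells (exact 2-sided permutation test, p = 0.3), at depths that differed between the libraries.

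Genes of the pathway outside the list were not called either. Of 70 other replication genes, among them the origin recognition complex, the polymerases Pold1 and Pole and the licensing inhibitor Gmnn, edgeR called 0 in each of the 5 classes, as did DESeq2, and an edgeR p under 0.05 before adjustment was found for 0, 1, 1, 0 and 0. Their median log2 fold change was −0.01 in stem-like, 0.00 in dividing, 0.02 in replication-led and 0.00 in secretory progenitor-like cells. In enteroendocrine-like cells it was −0.23, with 34 of 42 tested genes below 0. The 45 mitosis genes, also with 0 calls by both tools and 0, 1, 0, 0 and 0 at an unadjusted edgeR p under 0.05, had medians of −0.08, 0.02, −0.08 and 0.02 in those 4 classes and of −0.24 in enteroendocrine-like cells, with 32 of 38 below 0. In these cells the summed level of mitosis genes was 2683, 1653 and 1001 CPM in the wild-type group and 2525, 1145 and 1042 CPM in those labelled Itgb7 KO, so both replicates 1 were highest. Of the 33 replication genes, 9 overlap another gene of the tables on the GENCODE M21 annotation of the same build (Mcm7, Gins2, Cdc45, Cdt1, Rfc2, Rfc4, Fen1, Lig1 and Chaf1a). Whether strand was used in counting is not given in the sources used here, so reads could be shared there.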

How the data were processed

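The deposited values are UMI counts per gene and cell barcode, made by the authors. The tools named are Cell Ranger 2.1.1, Seurat and bcl2fastq 2.17.1.14, with the build mm10, per the submitters' processing notes, which give no roles. Barcodes with under 500 genes (3), under 1000 UMIs (0) or over 25% mitochondrial UMIs (107) were left out. Scrublet's automatic threshold marked under 0.5% of barcodes in 5 libraries and was used in none. In all 6 libraries the top 0.8% per 1000 barcodes by doublet score was removed instead, 969 in all. Of 25741 barcode sequences, 410 occurred in more than 1 library (1.59%). Cells were clustered on 2000 variable genes without the 33 genes and the other replication genes (30 principal components, Harmony-type correction for library, 15 neighbours, Leiden resolution 1.5; scanpy 1.11.5, leidenalg 0.10.2, numpy 2.4.6, Python 3.11.15).

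Counts were summed per library and class and tested with edgeR 4.0.16 (TMM, filterByExpr, quasi-likelihood; R 4.3.3, limma 3.58.1) at an adjusted p of 0.05 over all genes tested. DESeq2 1.42.0 was an alternative, and shares of cells were tested by exact permutation (scipy 1.17.1). Thinned shares used 3000 UMIs a cell, with 5000 and no thinning as alternatives. Other alternatives changed normalization, filters, doublets, clustering, class rule, depth, serial number and libraries. The edgeR step was tested on simulated data: in stem-like cells (11014 genes) it recovered 49.5% of 2-fold and 95.9% of 4-fold changes, in enteroendocrine-like cells (8251 genes) 6.2% and 89.1%.

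The genes and lists were chosen with earlier results of these data known. Genes with values in every library were the 2 highest of each role group in dividing cells, the 3 highest and 3 lowest log2 fold changes in each of the 4 planned classes, and any called or lying apart in at least 2 classes. The replication-led class, its use in the shares of cells, the enteroendocrine clusters at equal weight and the counts in differentiated classes were added after seeing the data. Same-numbered libraries deviated together from their group means, strongly for replicates 1 and weakly for the others. Correlations for replicates 1, 2 and 3 were 0.62, 0.28 and 0.14 in stem-like, 0.70, 0.30 and 0.18 in dividing and 0.68, 0.22 and 0.33 in enteroendocrine-like cells, and all others were above 0.1. In these classes 3, 4 and 3 of the 6 libraries correlated best with the library of their own number. Deviations within a group of 3 sum to 0, so a deviation shared by replicates 1 alone tends to make the other correlations positive. The values for replicates 2 and 3 therefore do not show a pairing of their own. The labels name no source of the likeness of replicates 1.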

Additional observations from a re-analysis of the deposited data

How the results depend on the processing

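The number of DNA replication genes called stayed 0 under every alternative run in stem-like, dividing, replication-led, secretory progenitor-like, enteroendocrine-like and all epithelial cells. The lowest adjusted p over the alternatives with a test was 0.202, 0.273, 0.205, 0.411, 0.0906 and 0.193 in that order. The median log2 fold change ran from −0.02 to 0.05, −0.15 to 0.10, −0.03 to 0.09, −0.18 to 0.23, −0.78 to −0.11 and −0.14 to 0.06 when 1 library was left out. Under the other alternatives it ran from −0.04 to 0.05, −0.05 to 0.05, −0.04 to 0.13, −0.15 to 0.13, −0.47 to −0.05 and −0.06 to −0.01. With the replicate block the median was −0.45 in enteroendocrine-like cells, and the block changed no call of the list. The difference in the share of cells with a Pcna UMI, labelled Itgb7 KO minus wild-type, was −11.1 percentage points in stem-like, −12.7 in dividing and −18.7 in enteroendocrine-like cells without thinning, where depth differs, and 5.3 in enteroendocrine-like cells thinned to 5000 UMIs, which leaves out more cells. Behind that last value, replicate 3 labelled Itgb7 KO alone lay above every wild-type library, and it lost the most cells, 1090 over all classes. Without library correction no replication-led class formed. With the list among the clustering genes no cluster could be named secretory progenitor, and the cluster highest in Atoh1 was used. Depth limits the smaller classes: sums held 583136 to 5276442 UMIs in secretory progenitor-like and 663947 to 1813230 in enteroendocrine-like cells.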
